A study of Mus musculus with 6 samples.

Results

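Integrins are transmembrane receptors made of an alpha and a beta chain, and they hold cells to the extracellular matrix. The matrix they meet at the base of an epithelium is the basement membrane, a sheet in which laminin trimers of an alpha, a beta and a gamma chain are tied to type IV collagen by nidogens and heparan sulfate proteoglycans. On the cytoplasmic side, talin, kindlins, integrin-linked kinase and their partners form the adhesion plaque that joins integrins to actin. In the developing kidney, integrin alpha 8 of the mesenchyme binds nephronectin in the basement membrane of the ureteric bud, and the bud often fails to grow when either is lost. Mesenchyme that turns into epithelium lays down its own laminins.

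The genes described here are 46 genes of this system, taken by symbol, in 4 classes of 17 integrin chains, 10 laminin chains, 9 other basement membrane proteins and 10 adhesion plaque proteins. The arrays carried 93 probes for 43 of them, of 19057 named genes in all, and Lama3, Frem2 and Ptk2 were not analysed here. RNA came from whole mouse embryonic kidneys at E13.5, with 3 arrays of control kidneys and 3 of kidneys with the genotype YapCM-/-, all of a mixed C57BL/6 x 129S1/SvImJ background. The labels give no further allele of either group and do not spell out CM. As far as the study is known, CM means the cap mesenchyme, whose nephron progenitors surround the bud tips, and a Cre driven by Six2 removes Yap there, so that ureteric bud, most stroma, vessels and blood of the mutant organ still carry the gene. Yap is the transcriptional coactivator that Hippo signalling restrains. Nothing in the labels tells whether the 3 replicates of a group were separate embryos, so each p-value reflects only how far these arrays spread, which may be technical.

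Values are log2 signals that the authors deposited after normalization, at an array median of 7.30, and no subtraction of background is visible, so whether a probe near 7.3 is above background was not assessed here, and folds of dim probes are understated. The 15 pairs that 6 arrays form correlated at 0.983 to 0.993 across tested probes. The 22640 probes with a mean above 7.29 were tested with limma, and a gene counts as called at an adjusted p under 0.05. Yap1 was called, with 9.73 ± 0.09 (SD, n = 3) in control and 8.87 ± 0.14 in YapCM-/- kidneys (adjusted p = 0.0102). Of the defining markers, all 7 of the cap mesenchyme and 11 of 12 of the ureteric bud passed the filter on dim probes, as did 2 of 6 for the podocyte and 4 of 6 for the proximal tubule. In RNA of a whole organ, fewer cells of a type and less RNA per cell cannot be told apart.

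No member differed between the groups at the threshold. Of the 40 members with a tested probe, limma called 0 higher and 0 lower, and all 56 tested member probes had an adjusted p of at least 0.195, where 0.264% of all tested genes and 0.177% of all tested probes were called. At an unadjusted p under 0.05 stood 7 members on the lower side in YapCM-/- kidneys, Itga3, Itga5, Itga8, Itgb6, Lamb1, Ilk and Vcl, which is 17.5% of the 40 where 6.86% of all tested genes had such a p. On the higher side it was 1 member, Zyx, against 6.6% of all tested genes. The groups did not overlap, with the mutant arrays lower, at 6 members, where 9.06% of all tested genes did so, and with the mutant arrays higher at 1 member, against 8.94%. The median log2 difference, YapCM-/- minus control, over the 40 members was -0.05, and it was 0.0039 over all 11762 tested genes. The differences ran from -0.43 for Lamb1 to 0.23 for Zyx, and for 39 members, all but Lamb1, the whole 95% interval of the difference stayed inside 1.5-fold (0.58 on the log2 scale). That bound holds for the deposited signals only. With the background subtracted it held for 19 of the 40, and the differences ran from -0.55 for Itga5 to 0.49 for Itgb8. The count of 7 dropped to 4 when control replicate 1 was left out and to 3 when YapCM-/- replicate 1 was. The count of 1 became 0 without control replicate 2, without YapCM-/- replicate 1 or without YapCM-/- replicate 2, and 2 without control replicate 3.

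**Figure D1:**
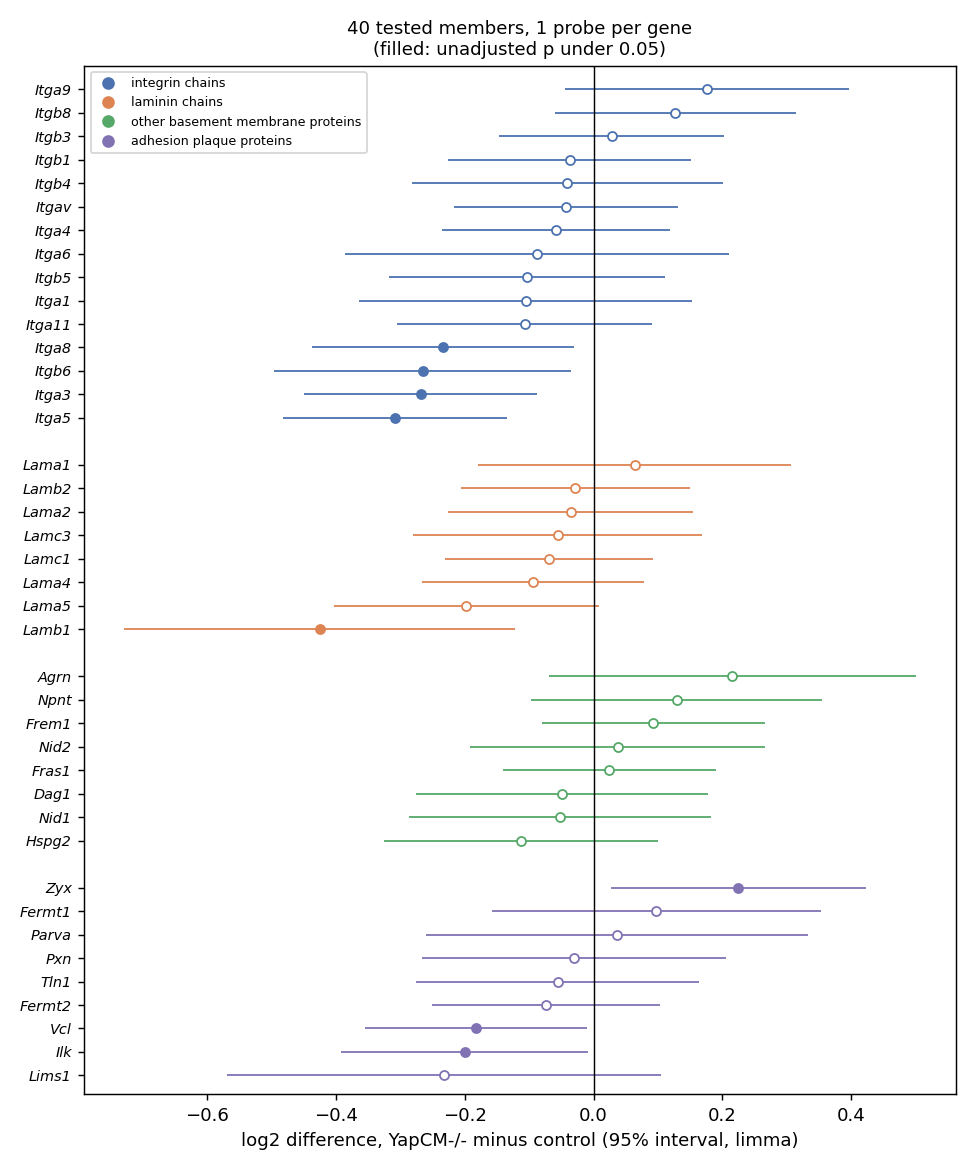
Log2 difference (x axis, YapCM-/- minus control, with the 95% interval from limma) of the 40 tested members, each a row, coloured by class, with filled points at an unadjusted p under 0.05. Most integrin and laminin chains lie left of 0, Lamb1 farthest at -0.43, and Zyx at 0.23 is the filled point on the right.

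Among the 15 tested integrin genes, 12 had a difference below 0 and 3 above it, with a median of -0.09. The 4 with the smallest p were all lower on every mutant array than on any control array, which their choice by p favours. No other integrin gene had such a gap, so the share was 26.7% of the 15, against 9.06% of all tested genes. Itga5, the alpha chain of the classical fibronectin receptor, read 8.37, 8.35 and 8.32 on the control arrays and 8.10, 7.94 and 8.07 on the YapCM-/- arrays. The control arrays lay close together and above all mutant arrays, with a log2 difference of -0.31 (SE 0.078, unadjusted p = 0.00273, adjusted p = 0.195 in limma). With the background subtracted the difference was -0.55 (adjusted p = 0.390). The other tested Itga5 probe differed by -0.14 (adjusted p = 0.604) and its groups overlapped.

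Itga3, the alpha chain of a laminin receptor of ureteric bud and podocytes, read 8.97, 9.09 and 8.97 in control and 8.68, 8.71 and 8.84 in YapCM-/- kidneys. All mutant arrays were lower, with a mean difference of -0.27 (SE 0.081, adjusted p = 0.249 in limma). Itga5 and Itga3 kept an unadjusted p under 0.05 in each of the 6 fits that leave out 1 array. The 2 tested podocyte markers, Podxl and Synpo, were also lower on all mutant arrays, their summed linear signal running from 1138 to 1497 in control and from 899 to 1087 in YapCM-/- kidneys, and 0 of the 2 were called by limma, though both had an unadjusted p under 0.05; Nphs1 did not pass the filter on dim probes. Most ureteric bud markers went the other way, with 9 of the 11 tested above 0, 2 below it and a median of 0.16. The part of either marker list in the Itga3 difference was not tested.

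Itgb6, an epithelial beta chain that pairs with the alpha v chain, gave the same side on both of its tested probes. The brighter probe read 8.23, 8.12 and 8.35 in control and 7.77, 8.07 and 8.06 in YapCM-/- kidneys, and the means differed by -0.27 (SE 0.104, adjusted p = 0.381 in limma). The other read 7.66, 7.59 and 7.79 against 7.43, 7.47 and 7.42, a difference of -0.25 (SE 0.081, adjusted p = 0.283). On neither probe did the groups overlap. YapCM-/- replicate 1 was the lowest array on the brighter probe, and without it the difference there was -0.17; with the background subtracted it was -0.51 (adjusted p = 0.521). Of the 11 tested ureteric bud markers, 9 had a difference above 0 and 2 below it, with a median of 0.16. Limma called 1, Ret, higher, and at an unadjusted p under 0.05 stood 3 on the higher side and 1 on the lower. The 2 below 0 were Cdh1 at -0.20, which had such a p, and Krt8 at -0.14 with overlapping groups. The summed signal of the 11 ran from 10604 to 11126 in control and from 11080 to 12086 in YapCM-/- kidneys, with overlap. Their part in the Itgb6 difference was not tested.

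Itga8, the alpha chain of the nephronectin receptor in the metanephric mesenchyme, read 8.34, 8.34 and 8.13 in control and 7.92, 8.10 and 8.09 in YapCM-/- kidneys. They were separated by a narrow gap, between control replicate 3 and YapCM-/- replicate 2, with a log2 difference of -0.23 (SE 0.091, adjusted p = 0.381 in limma). It was -0.43 with the background subtracted and -0.09 for the mean of the gene's tested probes. A probe made to another cDNA of Itga8 showed a difference of 0.05 (adjusted p = 0.890), with values from 7.49 to 7.77. Cap mesenchyme markers moved the same way in part. Of the 7 tested, 2 were called lower, at an unadjusted p under 0.05 stood 3 on the lower side and 1 on the higher, and their summed signal ran from 4460 to 5414 in control and from 4316 to 4579 in YapCM-/- kidneys, with overlap; their part in the Itga8 difference was not tested. Itgb1, the beta chain that pairs with the alpha chains 3, 5 and 8 among others, had overlapping groups. It read 8.27, 8.37 and 8.18 in control and 8.17, 8.21 and 8.33 in YapCM-/- kidneys, a difference of -0.04 with a 95% interval from -0.23 to 0.15 (adjusted p = 0.918), and its other probe stood at 0.11 (adjusted p = 0.679).

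The other 10 tested integrin genes had differences from -0.11 to 0.18, each with overlapping groups and an adjusted p of at least 0.547 in limma. They were the collagen receptor chains Itga1 (-0.11) and Itga11 (-0.11), the laminin receptor chains Itga6 (-0.09) and Itgb4 (-0.04), Itga4 (-0.06), Itga9 (0.18), Itgav (-0.04), Itgb3 (0.03), Itgb5 (-0.10) and Itgb8 (0.13). Itga6, known from the epithelium of bud and nephron, varied more within a group than between the groups, reading 8.40, 8.75 and 8.43 in control and 8.16, 8.63 and 8.51 in YapCM-/- kidneys. The highest difference of the class, that of Itga9, came from a probe without an accession in the annotation, and the probe for the Itga9 reference transcript stood at -0.08 (adjusted p = 0.803). The probes of Itga2, a collagen receptor chain, and Itga7, a laminin receptor chain of muscle, did not pass the filter on dim probes.

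**Figure D2:**
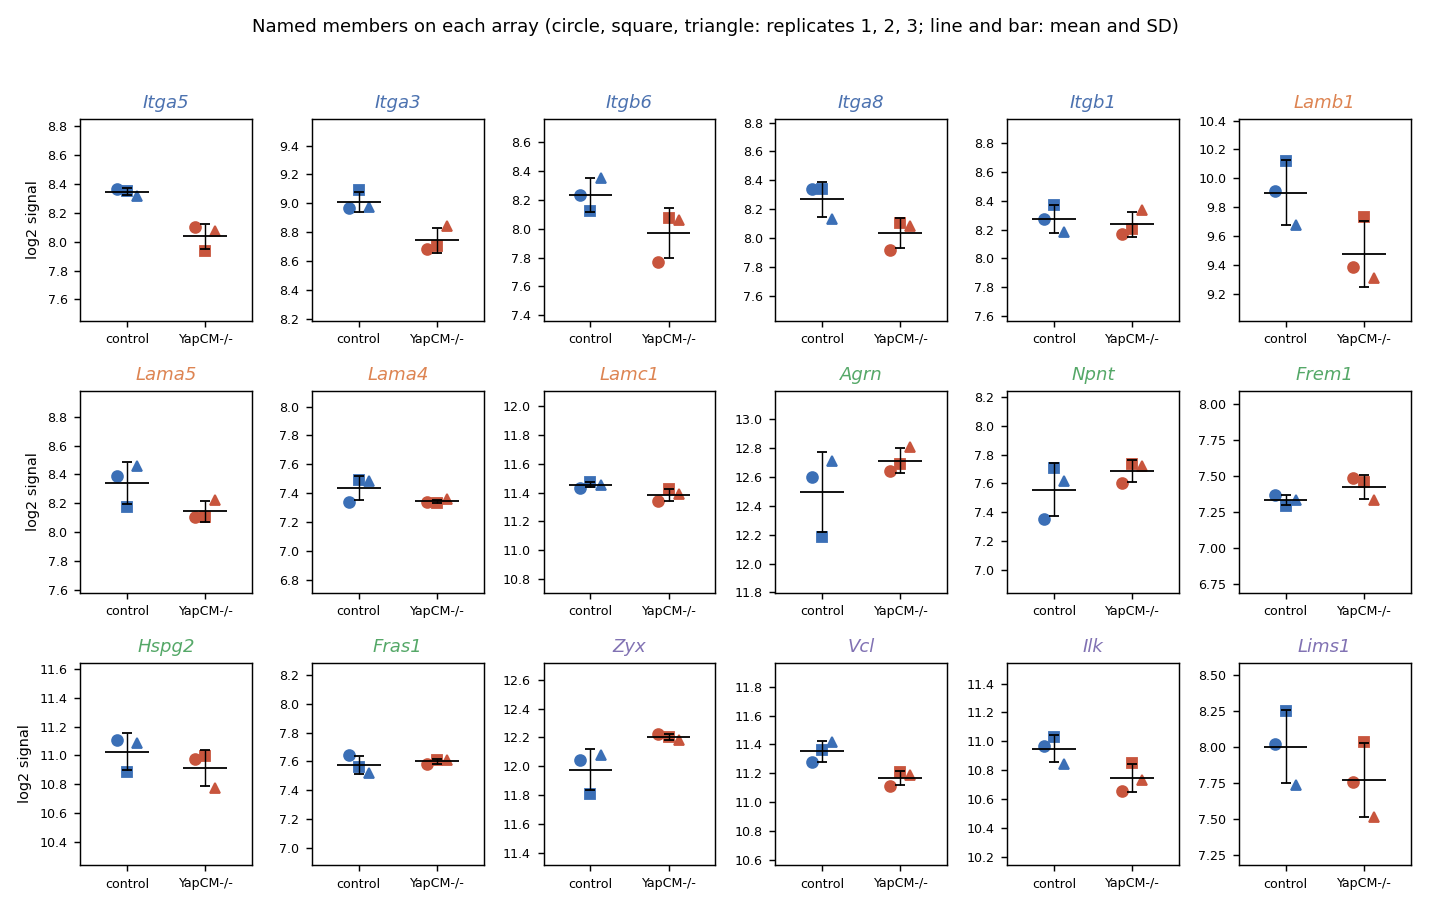
Log2 signal (y axis, the same height in every panel) of the 18 named members on each array, control in blue and YapCM-/- in red, replicates 1 to 3 as circle, square and triangle, with mean and SD, and gene names coloured by class. Itga5, Itga3, Itgb6, Itga8, Lamc1 and Vcl have all mutant arrays below all control arrays, and Zyx has them above.

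Of the 8 tested laminin genes, 7 had a difference below 0 and 1 above it, with a median of -0.06. Lamb1, the beta chain of the laminins of early embryonic basement membranes, had the lowest difference of the 40 tested members in the deposited signals. It read 9.91, 10.12 and 9.67 in control and 9.39, 9.73 and 9.31 in YapCM-/- kidneys, and the groups differed by -0.43 on the log2 scale (SE 0.136, unadjusted p = 0.0109, adjusted p = 0.273 in limma), which on the linear scale is a control level 1.34 times that of the mutant. The groups overlapped, since YapCM-/- replicate 2 lay above control replicate 3, and the SD within each group was 0.22 and 0.23. An unadjusted p under 0.05 remained in each of the 6 fits that leave out 1 array. With the replicate number added to the limma fit as a block, the adjusted p of Lamb1 was 0.060. Of the 7 stroma markers, limma called 0, and 3 had a difference above 0 and 4 below it. At an unadjusted p under 0.05 in limma stood 0 on the higher side and 3 on the lower. These 3 were Col1a1 at -0.35, Col3a1 at -0.45 and Pdgfrb at -0.32. Pdgfra stood at 0.12, Tbx18 at 0.11, Foxd1 at 0.06 and Meis1 at -0.06. The stroma median, as the deviation from each gene's mean over the 6 arrays, was 0.09, 0.16 and -0.20 in control and -0.07, 0.05 and -0.20 in YapCM-/- kidneys. The summed stroma signal overlapped, from 11503 to 15098 in control and from 11435 to 14215 in YapCM-/- kidneys, and the part of these genes in the Lamb1 difference was not tested.

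Lama5, the alpha chain that replaces Lama1 in maturing tubule and glomerular basement membranes, read 8.39, 8.18 and 8.46 in control and 8.10, 8.10 and 8.22 in YapCM-/- kidneys. Control replicate 2 lay among the mutant arrays, and the difference of -0.20 (SE 0.092, adjusted p = 0.459 in limma) was -0.28 without it and -0.34 with the background subtracted. Lamc1, the gamma chain shared by most laminins, differed by only -0.07 (SE 0.072, adjusted p = 0.783), with readings of 11.44, 11.47 and 11.46 against 11.34, 11.43 and 11.39. Its other probe differed by -0.18 (adjusted p = 0.478), and on both probes each mutant array was below each control array. Lama4, a chain of vessel basement membranes, read 7.34, 7.49 and 7.48 against 7.34, 7.33 and 7.36, a difference of -0.09 (adjusted p = 0.705), and a further probe gave -0.10 (adjusted p = 0.660). These readings lie close to the array median of 7.30, and the first difference was -0.38 with the background subtracted and -0.14 without control replicate 1. Of the 7 endothelial markers, limma called 0, with an unadjusted p under 0.05 for 2 on the higher side and 0 on the lower, and a summed signal from 5088 to 5743 in control and from 5794 to 6327 in YapCM-/- kidneys.

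Lama1, the alpha chain made by newly formed nephron epithelium, was the member of the class above 0, at 0.06 (limma adjusted p = 0.879), with 9.38, 9.05 and 9.27 in control and 9.46, 9.16 and 9.29 in YapCM-/- kidneys. Its 95% interval ran from -0.18 to 0.31. Lama2, a chain of muscle and nerve laminins, stood at -0.04 (adjusted p = 0.922), Lamb2, the beta chain of the mature glomerular basement membrane, at -0.03 (adjusted p = 0.932) and Lamc3 at -0.06 (adjusted p = 0.889). The probe of Lamb3, a chain of the laminin of skin, did not pass the filter on dim probes. In all, 37 member probes did not pass it, with array values from 6.94 to 7.54 and differences from -0.16 to 0.09.

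**Figure D3:**
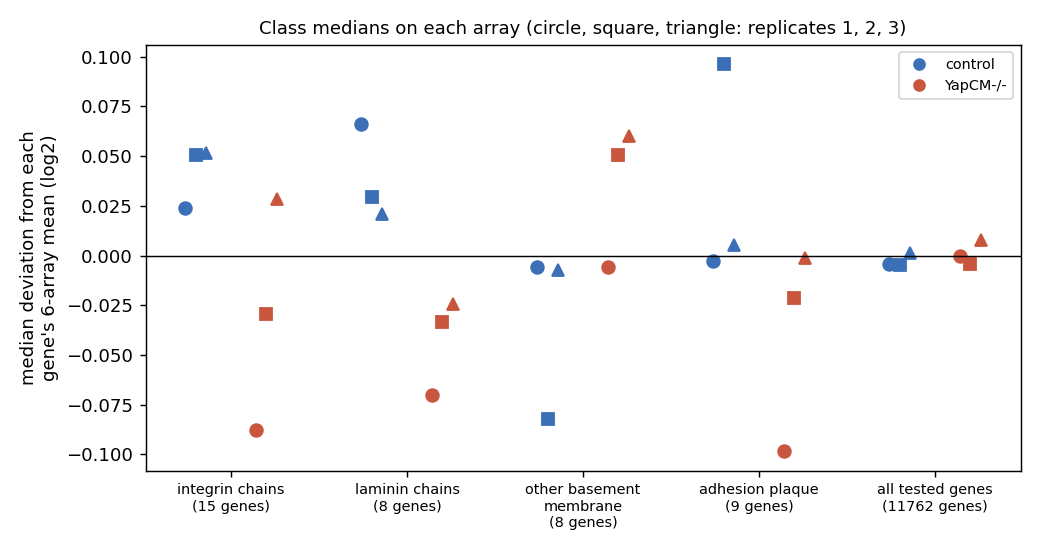
Median deviation of each class from its genes' means over the 6 arrays (y axis, log2) on each array, control in blue and YapCM-/- in red. The 8 laminin genes place all control arrays, from 0.02 to 0.07, above all mutant arrays, from -0.07 to -0.02. The 11762 tested genes of all kinds stay within 0.01 of 0, as arrays with nearly the same sorted values would. They do not show how far a median of 8 genes moves between arrays.

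The laminin median was 0.07, 0.03 and 0.02 on the control arrays and -0.07, -0.03 and -0.02 on the YapCM-/- arrays. The integrin median was 0.02, 0.05 and 0.05 in control and -0.09, -0.03 and 0.03 in YapCM-/- kidneys, with overlap at YapCM-/- replicate 3. The difference median of the integrin class, -0.09, was -0.03 without YapCM-/- replicate 1, the array that was lowest. With 1 array left out, the median difference ran from -0.09 to -0.05 for laminins, from 0.01 to 0.04 for other basement membrane proteins and from -0.11 to -0.03 for adhesion plaque proteins. No p is given for these medians, which describe the genes listed. Medians of short lists can also spread among arrays of the same group, as that of the 7 stroma markers did in control (0.09, 0.16 and -0.20).

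Of the 8 tested genes for other basement membrane proteins, 5 had a difference above 0 and 3 below it, with a median of 0.03. Agrn, agrin, a heparan sulfate proteoglycan of kidney basement membranes, read 12.60, 12.18 and 12.71 in control and 12.64, 12.69 and 12.81 in YapCM-/- kidneys. Control replicate 2 was far below the other arrays, and the log2 difference of 0.22 (SE 0.128, adjusted p = 0.569 in limma) was 0.06 without it. Hspg2, perlecan, a proteoglycan of nearly all basement membranes, had probes that went opposite ways. The probe with the higher mean, which has no accession in the annotation, read 11.11, 10.88 and 11.09 against 10.98, 10.99 and 10.77, a difference of -0.11 (adjusted p = 0.715) that was -0.04 without YapCM-/- replicate 3, -0.07 without control replicate 1 and -0.18 without control replicate 2. The probe for its reference transcript read 11.08, 10.59 and 10.91 against 11.13, 11.16 and 10.95, a difference of 0.23 (adjusted p = 0.534). Control replicate 2 was the lowest control array on both. The reference probe's means were 10.86 in control and 11.08 in YapCM-/- kidneys, against 11.03 and 10.91 for the probe without an accession. Over all arrays the probes were nearly equal, and this near tie decided which stood for Hspg2. The counts and median of the class given above depend on that choice. With the mean of a gene's tested probes, Hspg2 stood at 0.06 and the class median at 0.05.

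Npnt, nephronectin, the ligand of integrin alpha 8 in the bud's basement membrane, read 7.35, 7.70 and 7.62 in control and 7.60, 7.73 and 7.72 in YapCM-/- kidneys. The difference of 0.13 (SE 0.101, adjusted p = 0.686 in limma) was 0.03 without control replicate 1, the low array, and 0.20 without control replicate 2. Fras1 and Frem1 encode matrix proteins of a complex that lies beneath the bud epithelium and is needed for nephronectin to be placed there, in mouse. Fras1 read 7.64, 7.56 and 7.52 in control and 7.58, 7.61 and 7.61 in YapCM-/- kidneys, a difference of 0.02 (adjusted p = 0.937), and its other probe gave 0.07 (adjusted p = 0.847). Frem1 read 7.37, 7.30 and 7.34 against 7.49, 7.46 and 7.33, a difference of 0.09 (adjusted p = 0.712). The readings of these 3 genes lie close to the array median, and with the background subtracted the differences were 0.42 for Npnt, 0.08 for Fras1 and 0.39 for Frem1. Of the receptor and its ligand, Itga8 stood at -0.23 and Npnt at 0.13 in the deposited signals, and neither was called. With the background subtracted they stood at -0.43 and 0.42. Itga8 stood at -0.09 for the mean of its tested probes, and Npnt at 0.03 without control replicate 1.

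The nidogens, which link laminin to type IV collagen, showed differences of -0.05 for Nid1 (limma adjusted p = 0.902) and 0.04 for Nid2 (adjusted p = 0.931). Dag1, dystroglycan, a laminin receptor that is not an integrin, stood at -0.05 (adjusted p = 0.904), and a further probe gave 0.10 (adjusted p = 0.788). The groups of all 3 genes overlapped.

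Of the 9 tested genes of the adhesion plaque, 3 had a difference above 0 and 6 below it, with a median of -0.06. Zyx, zyxin, a plaque protein that moves to actin fibres under tension, was the only member on the higher side at an unadjusted p under 0.05. It read 12.05, 11.81 and 12.08 in control and 12.22, 12.21 and 12.18 in YapCM-/- kidneys, a difference of 0.23 (SE 0.089, unadjusted p = 0.0295, adjusted p = 0.385 in limma). All mutant arrays were above all control arrays, and without control replicate 2, the lowest, the difference was 0.14. Vcl, vinculin, which binds talin and actin, read 11.27, 11.36 and 11.42 against 11.11, 11.21 and 11.18, a difference of -0.18 (SE 0.077, adjusted p = 0.415), with no overlap. Vcl kept an unadjusted p under 0.05 in limma in 1 of the 6 fits that leave out 1 array. Ilk kept it in 2 of the 6, and Itgb6, Itga8 and Zyx in 3 each.

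YAP acts through TEAD factors, which bind DNA with the letters GGAATG. These 6 letters, searched on both strands, stood in 5 of the 42 promoter windows that RefSeq's table (build GRCm38.p6) holds for 32 of the 46 members, which is 11.9% of those windows, and in 14.7% of all 32851 windows. Each window has 250 bases before and 50 after a gene's start. The members with a match were Vcl, Itgb1, Lamb3, Frem2 and Nid1. The 250 bases before the start are shown for Vcl and Itgb1, the members with a match there whose values on each array are given above, with the matched letters in capitals; both lie on the plus strand, Vcl at chr14:20929148-20929397 with the match 143 bases before the start, and Itgb1 at chr8:128685404-128685653 with the match 7 bases before it. A match is a description of the letters and no evidence of binding.
Vcl: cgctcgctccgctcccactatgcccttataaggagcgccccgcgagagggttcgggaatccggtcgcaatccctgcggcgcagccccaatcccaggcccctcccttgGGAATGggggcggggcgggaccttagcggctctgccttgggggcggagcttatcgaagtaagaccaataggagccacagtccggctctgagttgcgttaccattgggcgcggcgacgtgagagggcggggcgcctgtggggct
Itgb1: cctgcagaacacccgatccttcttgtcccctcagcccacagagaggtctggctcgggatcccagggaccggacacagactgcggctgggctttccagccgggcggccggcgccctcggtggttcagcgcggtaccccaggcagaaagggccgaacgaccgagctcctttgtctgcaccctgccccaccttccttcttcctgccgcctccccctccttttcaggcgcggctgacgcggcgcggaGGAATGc

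Ilk, the integrin-linked kinase that holds the plaque together with Parva and Lims1, read 10.97, 11.03 and 10.84 in control and 10.66, 10.85 and 10.73 in YapCM-/- kidneys. The groups overlapped slightly, at control replicate 3 and YapCM-/- replicate 2, with a difference of -0.20 (SE 0.086, adjusted p = 0.422 in limma). Lims1, the adaptor PINCH, read 8.02, 8.25 and 7.74 against 7.76, 8.04 and 7.52, a difference of -0.23 (SE 0.151, adjusted p = 0.611) inside an SD of 0.26 in each group, and its other probe gave -0.04 (adjusted p = 0.934). The first difference was -0.11 without control replicate 2 or without YapCM-/- replicate 3, -0.36 without control replicate 3, -0.37 without YapCM-/- replicate 2 and -0.53 with the background subtracted. Parva, the third partner, did not share the sign, at 0.04 (adjusted p = 0.951), with 9.72 ± 0.29 (SD, n = 3) in control and 9.75 ± 0.10 in YapCM-/- kidneys. Tln1, talin, which switches integrins on, stood at -0.06 (adjusted p = 0.885), Pxn, paxillin, at -0.03 (adjusted p = 0.947), and the kindlins Fermt1 and Fermt2 at 0.10 (adjusted p = 0.808) and -0.07 (adjusted p = 0.789).

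Probes of the same gene did not always share a sign. Of the 15 members with more than 1 tested probe, 7 had all tested probes on 1 side of 0 and 8 did not. Itgb6, Itga5, Itgb4, Lama4, Lamc1, Fras1 and Lims1 were the 7. For Itga6, Itga8, Itga9, Itgav, Itgb1, Nid1, Hspg2 and Dag1 the sign depended on the probe. Of the 93 member probes, 21 were made to cDNA records with accessions that begin with AK rather than to a reference transcript, and 7 of these were tested.

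**Figure D4:**
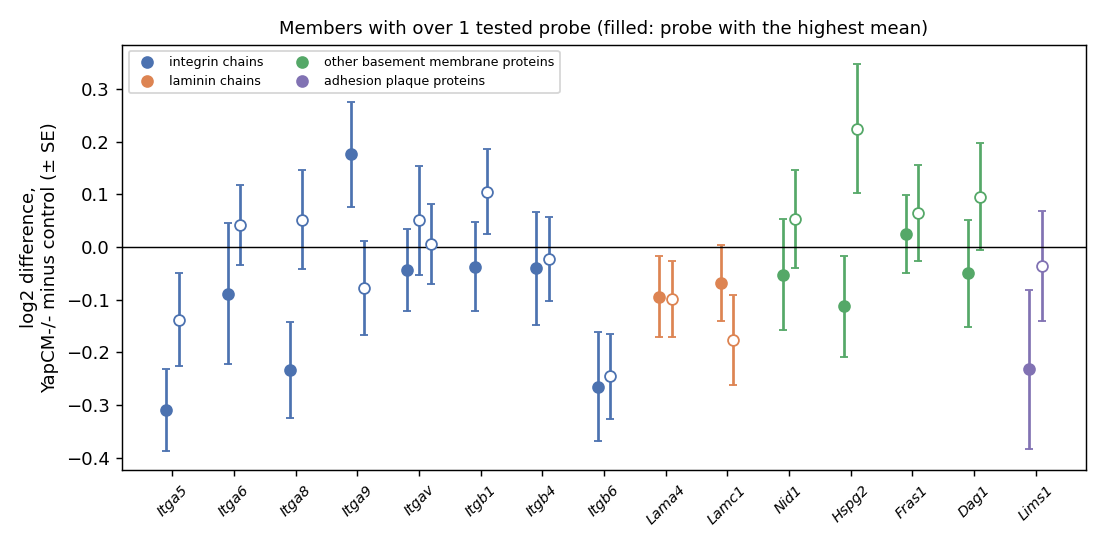
Log2 difference (y axis, YapCM-/- minus control, ± SE) of every tested probe of the 15 members that have more than 1, filled for the probe with the highest mean. Both Itgb6 probes lie near -0.25, and the Hspg2 probes lie on opposite sides at -0.11 and 0.23.

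A wider list of 68 integrin, basement membrane and plaque genes outside the members gave the same outcome at the threshold. Of its 46 tested genes, limma called 0, with a median difference of -0.0015. At an unadjusted p under 0.05 stood 6 on the lower side, 13% of the 46 against 6.86% of all tested genes, and 0 on the higher side, against 6.6%. By its parts, 4 further integrin chains had 0 genes at such a p, 24 further basement membrane genes had 5 (20.8%), and 18 further plaque genes had 1 (5.56%), all on the lower side. The groups did not overlap, with the mutant arrays lower, at 8 of the 46, 17.4% against 9.06% of all tested genes. With the mutant arrays higher it was 0, against 8.94%. The 4 with the smallest p were all lower on each mutant array, which their choice by p favours. Tinag, a basement membrane antigen of tubules, read 7.67 ± 0.10 (SD, n = 3) in control and 7.31 ± 0.09 in YapCM-/- kidneys. The log2 difference was -0.35 (limma adjusted p = 0.193), and the mutant mean lies close to the array median of 7.30. A further Tinag probe, at 0.04, did not pass the filter on dim probes. Col4a2, a chain of the type IV collagen found in all basement membranes, read 11.11 ± 0.11 and 10.71 ± 0.21, a difference of -0.40 (adjusted p = 0.220). Git1, a plaque scaffold, stood at -0.32 (adjusted p = 0.245) and on a further probe at -0.08, and Bcam, a receptor for laminins that hold Lama5, stood at -0.29 (adjusted p = 0.311) and on a further probe at -0.22. The groups overlapped on these further probes of Git1 and Bcam. Col4a1, the partner of Col4a2 in the collagen trimer, was named after its values were seen, and differed by -0.25 (adjusted p = 0.399). Proximal tubule markers moved with Tinag, with 2 of 4 tested called lower and a summed signal from 1304 to 1797 in control and from 793 to 886 in YapCM-/- kidneys, Cubn not passing the filter on dim probes; their part in the Tinag difference was not tested.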

How the data were processed

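Illumina bead arrays measured biotin-labelled cRNA made from total RNA of whole embryonic kidneys, per the labels' protocols. The deposited table holds log2 signals of 45281 probes on 6 arrays. Its sorted columns differed by at most 0.0051, as quantile normalization by the authors would leave them; the sources used here do not name the software or a background step. The other deposited table, before normalization, stayed unused, since its 12 columns of per-sample values match no sample's labels.

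Probes were named through the platform annotation, and all 93 member probes had a gene identifier with the same symbol in RefSeq's gene table. Probes whose mean lay in the upper 50% were tested by a two-sided, 2-group fit without covariates in limma 3.58.1 (R 4.3.3), using lmFit and eBayes, with Benjamini-Hochberg adjustment over all 22640 tested probes. Where a gene had several tested probes, the brightest represented it. The fit was tested on simulated data with planted differences larger than any member showed in the deposited signals. That test does not tell whether differences of the members' size would be called. Precision is limited by having 3 arrays per group.

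The members, lists and settings were chosen with earlier results of these data known. Values on each array are given for members past the threshold, for the 4 with the smallest p in each class, and for Itga8, Npnt, Fras1, Frem1 and Itgb1 (the rule also holds Frem2, which has no probe under that symbol here); Itga6 and Lama1 were added after their values were seen. Of the wider list the 4 genes with the smallest p are named. Other settings covered the filter, the options of eBayes, weights per array, a block for the replicate number, background subtraction, cyclic loess, the threshold, averaging of a gene's probes and each array left out.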

Additional observations from a re-analysis of the deposited data

How the results depend on the processing

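Under every setting run, limma called 0 member probes and 0 genes of the wider list (the mean of a gene's probes was run for the latter, not for member probes). The 40 called probes of the whole array, with 2594 at an unadjusted p under 0.05, became 26 under a strict filter that kept the brightest 25% of probes, 64 with the trend and robust options, 87 at a threshold of 0.10, 0 with background subtracted (2180 at an unadjusted p under 0.05) and 6 to 27 with 1 array left out. The 7 lower members at an unadjusted p under 0.05 became 4, and the 1 higher became 0, with background subtracted, and they ranged from 3 to 7 and from 0 to 2 with 1 array left out. The integrin median was -0.17 under the strict filter, -0.14 with background subtracted and -0.12 to -0.030 with 1 array left out; the laminin median was -0.14 with background subtracted; the median of other basement membrane proteins was -0.050 under the strict filter, where fewer genes were tested. Among single members, the mean of a gene's probes turned Hspg2 to 0.056 and Itgb1 to 0.034, and leaving out 1 array gave -0.0020 to 0.058 for Fras1 and -0.086 to 0.010 for Itgb1. The other 261 values of single members kept their sign and stayed short of the threshold. The nearest to it was Lamb1 with the replicate number as a block, at an adjusted p of 0.060 in limma against 0.273 in the main fit. Lims1 went from 0.611 to 0.244 under that setting. With the replicate number as a block 138 probes were called; the deviations of same-numbered arrays correlated at 0.13, 0.14 and -0.02, so the numbers were not taken to pair the samples. Background subtraction moved the differences of Itga5, Itgb6, Itga8, Itgb1, Lama4, Lama5, Lims1, Npnt, Frem1 and Fras1 by over 1.5 times. Background limits what dim members such as Npnt, Fras1 and Frem1 can show.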
